A study of Mus musculus with 12 samples.

Results

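Drug metabolism in GFP(+) liver cells was followed through the genes of 4 enzyme families, the cytochromes P450 (*Cyp*), the UDP-glucuronosyltransferases (*Ugt1* and *Ugt2*), the sulfotransferases (*Sult*) and the glutathione S-transferases (*Gst*). Members were protein coding genes with these names whose mean over all libraries was at least 1, and *Cyp51*, *Cyp7a1* and *Cyp8b1*, which make sterols and bile acids, were left out. Of 106 genes with such names, 75 passed, among 12891 genes at or above that mean of the 16971 in the table. They comprised 27 genes of *Cyp* families 1 to 3, 8 of *Cyp4*, 6 other *Cyp* genes, 11 *Ugt*, 5 *Sult* and 18 *Gst* genes. The members were thus chosen by name and by their mean level, which uses the same libraries as the comparisons below. Just inside the threshold were *Cyp2b9* with a mean of 1.03 and *Cyp1a2* with 1.05, and just outside it *Cyp2s1* with 0.994 and *Gstm6* with 0.98.

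The cells came from livers of adult C57BL/6 mice of the genotype Prom1CreERT2-nLacZ/+;Rosa26Lsl-GFP/+, heterozygous for both alleles. Every mouse, controls included, received tamoxifen 7 days before surgery, which turns on GFP for good in cells that express *Prom1* at that time and in their progeny. The Cre is driven by the *Prom1* gene, so any cell type that expressed it at the time of tamoxifen could be labelled. The 3 groups were day 0 (3 libraries, called sham in the labels and before BDL in the study), BDL day 3 (3 libraries) and BDL day 14, where BDL is bile duct ligation, the surgical block of bile flow. The labels describe 6 libraries of BDL day 14, of which the table rests on 4, since 2 had too few reads. GFP(+) cells were sorted from the nonparenchymal fraction, which is meant to hold few hepatocytes. Both sexes were used, with more females than males at day 0 and the reverse at both BDL times, so sex and ligation cannot be fully told apart.

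Drug metabolism runs in steps. Cytochromes P450 of families 1 to 3 oxidise drugs, toxins and steroids with electrons passed on by *Por*, and the *Cyp4* enzymes mainly oxidise fatty acids and their signalling derivatives. Conjugating enzymes then attach a polar group: glucuronic acid by UGT, sulfate by SULT and glutathione by GST enzymes, after which transporters carry the product out of the cell. Hepatocytes are the main site of this system, most strongly around the central vein, but several members are known from other cells, such as *Gsto1* and *Cyp4f18* in leukocytes and *Cyp1b1* in mesenchymal cells.

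All values are the authors' group means of upper quartile normalized counts. The table held no value for a single library, apart from the value of the highest library of a gene, left unnamed, so no replicate test was possible and the depth per library is unknown. A member was counted as higher or lower where the group means differed by more than 1.5-fold, the fold threshold used in the study. The SE beside a log2 ratio was estimated from the gap between the group means and the geometric mean over the 10 libraries, which pools the spread of the 3 groups and is an approximate guide, not a test. A group mean within 4 times the lowest value of its column (a limit of 0.512 for day 0, 0.292 for BDL day 3 and 0.244 for BDL day 14) was read as the floor, and folds against the floor are given as bounds. The study counts the libraries of a group by males and females, so they were taken as separate mice.

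Stretches of promoter are shown for 5 members because their genes carry the main contrasts below: a pair of *Cyp3a* neighbours and a pair of *Gstp* neighbours that share letters and differed in level, and *Cyp4f18*, the member with the highest BDL day 14 level per kb of exon. Each is the 250 bases before the RefSeq start of the gene (GRCm38.p6, minus strand), written 5′ to 3′. They lie at chr5:145879855-145880104 (*Cyp3a11*), chr5:145720137-145720386 (*Cyp3a41a*), chr19:4037913-4038162 (*Gstp1*), chr19:4042222-4042471 (*Gstp2*) and chr8:72009627-72009876 (*Cyp4f18*). Capitals mark CAAAGTCCA in the *Cyp3a* genes, a letter pattern of the HNF4 type, TGACTCA read on the other strand in the *Gstp* genes, a pattern of the AP-1 type, and a match to TGACNNNGC in *Cyp4f18*, the core of the antioxidant response element.
Cyp3a11: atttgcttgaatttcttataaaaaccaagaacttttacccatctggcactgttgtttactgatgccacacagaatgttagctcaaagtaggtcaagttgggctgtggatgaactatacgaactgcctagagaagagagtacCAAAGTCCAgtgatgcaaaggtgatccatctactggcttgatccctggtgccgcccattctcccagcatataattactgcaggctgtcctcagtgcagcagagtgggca
Cyp3a41a: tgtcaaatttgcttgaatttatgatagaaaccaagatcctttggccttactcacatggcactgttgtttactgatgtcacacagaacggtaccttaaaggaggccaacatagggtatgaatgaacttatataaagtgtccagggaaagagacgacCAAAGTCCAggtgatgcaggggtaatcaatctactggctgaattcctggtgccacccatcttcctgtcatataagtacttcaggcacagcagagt
Gstp1: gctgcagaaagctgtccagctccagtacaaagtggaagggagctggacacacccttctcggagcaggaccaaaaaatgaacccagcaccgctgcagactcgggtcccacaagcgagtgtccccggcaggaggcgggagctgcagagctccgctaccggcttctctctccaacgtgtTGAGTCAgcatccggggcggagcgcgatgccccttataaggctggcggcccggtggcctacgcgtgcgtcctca
Gstp2: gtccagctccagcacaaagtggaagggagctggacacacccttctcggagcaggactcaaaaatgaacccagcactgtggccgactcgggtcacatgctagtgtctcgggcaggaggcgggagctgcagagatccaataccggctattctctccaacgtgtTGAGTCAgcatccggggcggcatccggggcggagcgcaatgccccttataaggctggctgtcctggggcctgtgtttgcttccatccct
Cyp4f18: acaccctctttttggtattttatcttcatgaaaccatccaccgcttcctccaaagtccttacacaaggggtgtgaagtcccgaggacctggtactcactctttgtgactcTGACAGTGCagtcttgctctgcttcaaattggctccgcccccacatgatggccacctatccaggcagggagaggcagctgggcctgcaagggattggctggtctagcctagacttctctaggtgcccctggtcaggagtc

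Most members were lower after BDL, and a small set, led by *Cyp4f18*, *Ugt1a7c* and *Gsto1*, was higher. At BDL day 3, 46 of the 75 members were over 1.5-fold lower than at day 0 and 11 were higher. The same shares over all 12891 genes were 29.2% lower and 19.2% higher. At BDL day 14, 53 members were lower and 10 higher, against 28.8% and 21.2% of all genes. The median log2 ratio of the members was -1.14 and then -1.30, and that of all genes was -0.02 and -0.04. Of the members, 43 were lower at both times, 9 were within 1.5-fold at BDL day 3 and lower at BDL day 14, 3 were lower at BDL day 3 alone, and 9 were higher at both times. Quantile normalisation of the group means gave 37 lower and 16 higher at BDL day 3, and 43 lower and 15 higher at BDL day 14.

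The filter on the mean takes part in these counts. A total of 20 members reached a mean of 1 only through their day 0 libraries, and for them a lower BDL mean follows from the way they were chosen, while 2 members reached it only through the BDL libraries. Among the 53 members with a mean of at least 1 both at day 0 and over the 7 BDL libraries, 26 were lower and 9 higher at BDL day 3, and 33 were lower and 8 higher at BDL day 14. Over the 11840 genes that met the same condition, 25.6% were lower and 19.1% higher at BDL day 3, and 25.3% were lower and 20.8% higher at BDL day 14. Nor was the balance the same at every level. Of the 21 members with a mean of at least 10, 7 were lower and 5 higher at BDL day 3, and 10 were lower and 6 higher at BDL day 14, whereas of the 54 members below 10, 39 and 43 were lower. Among all genes with a mean of at least 10, 15.0% and 17.4% were lower and 22.9% and 23.4% higher at the 2 times. Over all 12891 genes, 29.2% and 28.8% were lower, so the lower share was larger among genes of low level in the whole table as well.

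Spread between libraries was wide. The median estimated SD on the log2 scale was 1.21 for the members and 0.58 for all genes. It went with level, at 0.58 for the 21 members with a mean of at least 10 and 1.39 for the 54 under 10. When the log2 ratio also had to exceed 2 estimated SE, 29 members were lower and 6 higher at BDL day 3, beside 15.0% and 11.4% of all genes. At BDL day 14 the counts were 34 lower and 8 higher, beside 16.8% and 13.2%. In 29 members the highest library could only belong to day 0, since the other groups' sums were too small to hold it, and it gave between 38.4% and 96.6% of the day 0 signal (median 52.6%), where 3 equal libraries would share it evenly. The same held for 1346 of all 12891 genes, with a median share of 54.3%, close to that of the members.

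**Figure D1:**
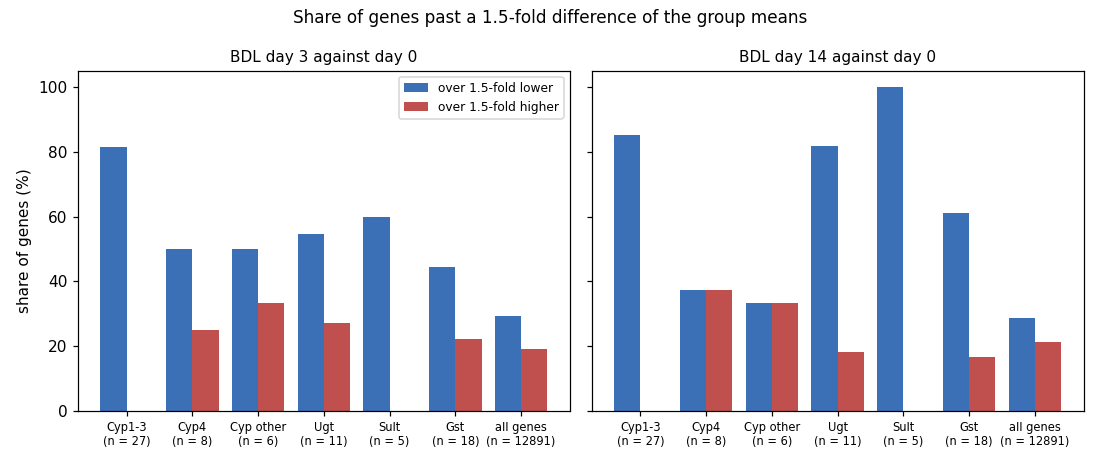
Share of genes (%, vertical axis from 0) whose group mean was over 1.5-fold lower (blue) or higher (red) than at day 0, for each family and for all 12891 genes, at BDL day 3 (left) and BDL day 14 (right); bars carry no error because the table has no value per library. The lower share of *Cyp* families 1 to 3 stood at 81.5% at BDL day 3, and *Cyp4* had as many higher as lower genes at BDL day 14. The 3 lower *Cyp4* genes had passed the filter through day 0 alone.

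The total output of the 75 genes differed less between groups than those counts. Their summed means over the 3 groups were 1282, 1067 and 1042, or 0.139%, 0.126% and 0.142% of the summed signal of the table. The make-up differed. The sum of *Cyp* families 1 to 3 was 248 at day 0, then 102 and 60.7, while that of *Cyp4* was 142, 150 and 363 in the same order. The *Gst* sum was 575, 581 and 387, the *Sult* sum 195, 138 and 62.5, and the *Ugt* sum 60.1, 36.7 and 93.4. Single genes carried these sums: *Cyp4f18* made up 46.6% of the *Cyp4* signal and *Ugt1a7c* 80.1% of the *Ugt* signal at BDL day 14, and *Sult1a1* made up 94.3% of the *Sult* signal.

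Compared per kb of exon, the highest members at day 0 were *Gstp1* with a level of 93 per kb, *Sult1a1* with 84.3 and *Gstm1* with 54. At BDL day 3 *Gsto1* led with 106 per kb, ahead of *Sult1a1* with 88.3. At BDL day 14 the order had changed again, with *Cyp4f18* at 91.1 per kb, *Gsto1* at 73.7 and *Gstp1* at 48.8. The drug-oxidising *Cyp2e1* went from 33.4 per kb at day 0 to 3.73 at BDL day 14.

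**Figure D2:**
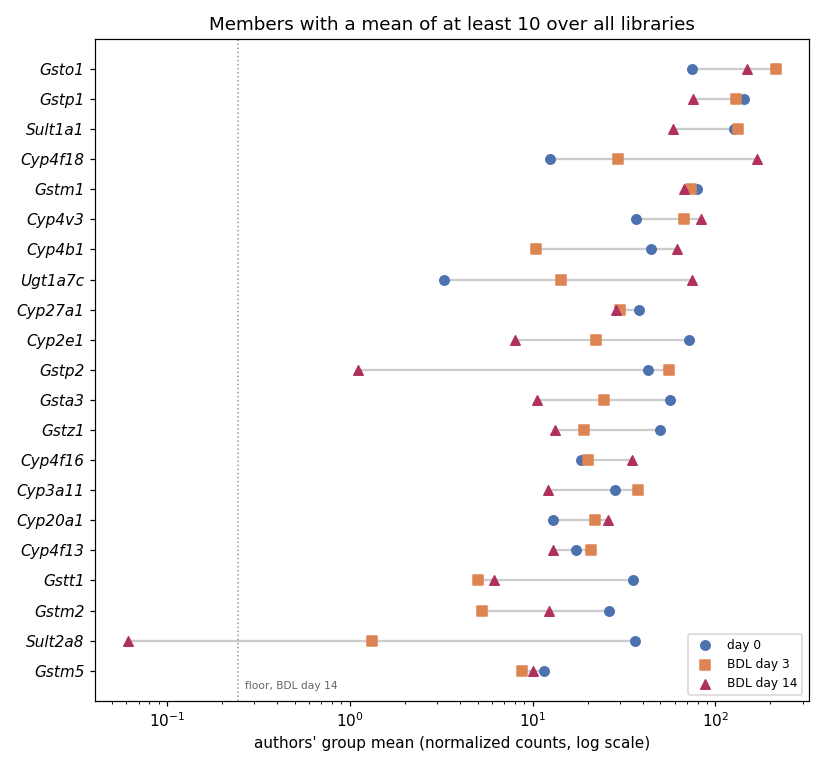
Authors' group means (normalized counts, log scale) of the 21 members with a mean of at least 10, at day 0 (circles), BDL day 3 (squares) and BDL day 14 (triangles), ordered by their mean over all libraries; the dotted line is the BDL day 14 floor of 0.244. *Cyp4f18* and *Ugt1a7c* have their BDL day 14 marks to the far right of day 0, *Gstp2* has its BDL day 14 mark far to the left (1.11, against 55.9 at BDL day 3), and the 3 marks of *Gstm1* lie between 67.8 and 79.5.

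Cytochromes P450 of families 1 to 3, the enzymes that oxidise most drugs, were lower in most cases. Of 27, 22 were lower at BDL day 3, 23 were lower at BDL day 14 and 0 were higher at either time, with median log2 ratios of -1.69 and -2.27, and 10 of the 27 had passed the filter through day 0 alone. With the added limit of 2 SE, 14 and 18 were lower, beside 15.0% and 16.8% of all genes. *Cyp2e1* (chr7:140763739-140774988, plus strand), which oxidises ethanol and paracetamol, had group means of 72.1, 22.3 and 8.05 at day 0, BDL day 3 and BDL day 14, a log2 ratio of -1.69 ± 0.52 (SE) and then -3.16 ± 0.49. It was 8.96-fold lower at BDL day 14, and its highest library, which held 45.1% of the day 0 signal, left a day 0 mean of 59.4 when taken out. *Cyp3a11*, the main inducible drug-oxidising P450 of mouse liver, differed in course. Its means were 28.3, 37.7 and 12.2, so BDL day 3 lay above day 0 by less than its SE (0.41 ± 0.63) and BDL day 14 below it (-1.21 ± 0.59).

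*Cyp1a1* and *Cyp1a2*, neighbours on chromosome 9 and classic targets of the aryl hydrocarbon receptor, were both lower. *Cyp1a1* had 11.4, 1.73 and 1.16, with a BDL day 3 log2 ratio within 2 SE of 0 (-2.72 ± 1.40) and 52.6% of its day 0 signal in 1 library. *Cyp1a2* had 2.48, 0.811 and 0.166, and its BDL day 3 call was lost under quantile normalisation. Since *Cyp1a2* had passed the filter through day 0 alone, its direction follows from the way it was chosen. *Cyp1b1*, of the same family but known from mesenchymal cells, had 6.17, 0.319 and 0.846, and 1 library held 69.2% of its day 0 signal, without which the day 0 mean was 2.85. The direction of *Cyp1b1* was fixed as well, because it had passed the filter through day 0 alone. All 7 stellate cell and fibroblast markers were lower at both BDL times as well, with summed means of 802, 17 and 74.2, and their part in the *Cyp1b1* values was not tested. *Cyp2d22* and *Cyp2j6* were lowest at BDL day 3 rather than at BDL day 14. Their means were 14.1, 2.49 and 8.01 for *Cyp2d22* and 12.4, 2.42 and 8.42 for *Cyp2j6*, an enzyme of arachidonic acid epoxidation.

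The genes *Cyp2a4*, *Cyp3a41a* and *Cyp2c40* had the smallest ratios of BDL day 14 to day 0 as listed, but all 3 passed the filter through day 0 alone, and much of their day 0 signal came from 1 library. *Cyp2a4*, a steroid hydroxylase, had means of 9.97, 0.762 and 0.061, and BDL day 14 was at least 40.9-fold lower than day 0, or at least 18.7-fold without the library that held 69.5% of the day 0 signal. *Cyp3a41a* had 8.41, 0.0729 and 0.061, at least 28.8-fold and at least 34.5-fold lower at the 2 BDL times, with 78.9% of its day 0 signal in 1 library, and at least 9.14-fold and 10.9-fold without it. *Cyp2c40* had 6.06, 0.451 and 0.061, at least 24.8-fold lower at BDL day 14 or, without the library that held 68.8%, at least 11.6-fold. In all 3 the BDL day 14 mean stood at the lowest value of its column, so the genes were at the floor there. Other genes were within 1.5-fold of day 0 at both times: *Cyp2c70*, which hydroxylates bile acids to muricholic acids in mice, had 2.27, 1.53 and 1.97, *Cyp3a25* had 1.64, 1.28 and 1.37, and *Cyp2a5*, the coumarin hydroxylase, had 4.8, 5.83 and 3.86. Under quantile normalisation they passed 1.5-fold higher in part, *Cyp3a25* at both times (log2 ratios 0.88 and 0.71), *Cyp2a5* at BDL day 3 (0.86) and *Cyp2c70* at BDL day 14 (0.67). *Cyp2a4* and *Cyp2a5* lie in 1 cluster on chromosome 7, have promoters that were 97.7% identical, and share 36.1% of the 50-base stretches of *Cyp2a4* transcripts, so reads could be split between them in counting.

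The clusters of the family held most of its remaining members. Of the 8 *Cyp2c* genes on chromosome 19 (chr19:39269405-40187334), which oxidise arachidonic acid and many drugs, 7 were lower at each BDL time. The shares over all genes were 29.2% and 28.8%. However, *Cyp2c37*, *Cyp2c40*, *Cyp2c54* and *Cyp2c69* had passed the filter through day 0 alone, so their direction follows from the way they were chosen. Under quantile normalisation *Cyp2c29*, *Cyp2c50* and *Cyp2c68* lost the lower call at BDL day 3, and *Cyp2c68* at BDL day 14. *Cyp2c29* had 4.9, 2.66 and 1.22, *Cyp2c37* 4.5, 1.08 and 0.714, and *Cyp2c54* 3.66, 0.536 and 0.114. In *Cyp2c37* and *Cyp2c54* 1 library held 65.5% and 64.8% of the day 0 signal, and the day 0 means without it were 2.33 and 1.94. The differences of *Cyp2c50* at BDL day 3 (3.77 and 2.36) and of *Cyp2c68* at BDL day 14 (2.81 and 1.65) turned sign under quantile normalisation, to log2 ratios of 0.15 and 0.03, and that of *Cyp3a13* at BDL day 14 (2.6 and 1.59) did so as well, to 0.11. All 4 *Cyp2d* genes on chromosome 15 were lower at BDL day 14, among them *Cyp2d10* with 7.73, 2.88 and 2.8, *Cyp2d26* with 7.23, 3.83 and 1.5 and *Cyp2d9* with 1.86, 1.52 and 0.638, whose call was lost under quantile normalisation. *Cyp2j5* had 7.55, 0.667 and 0.196, at the floor at BDL day 14, but it too had passed the filter through day 0 alone. *Cyp2a12* had 10.2, 4.63 and 2.26.

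**Figure D3:**
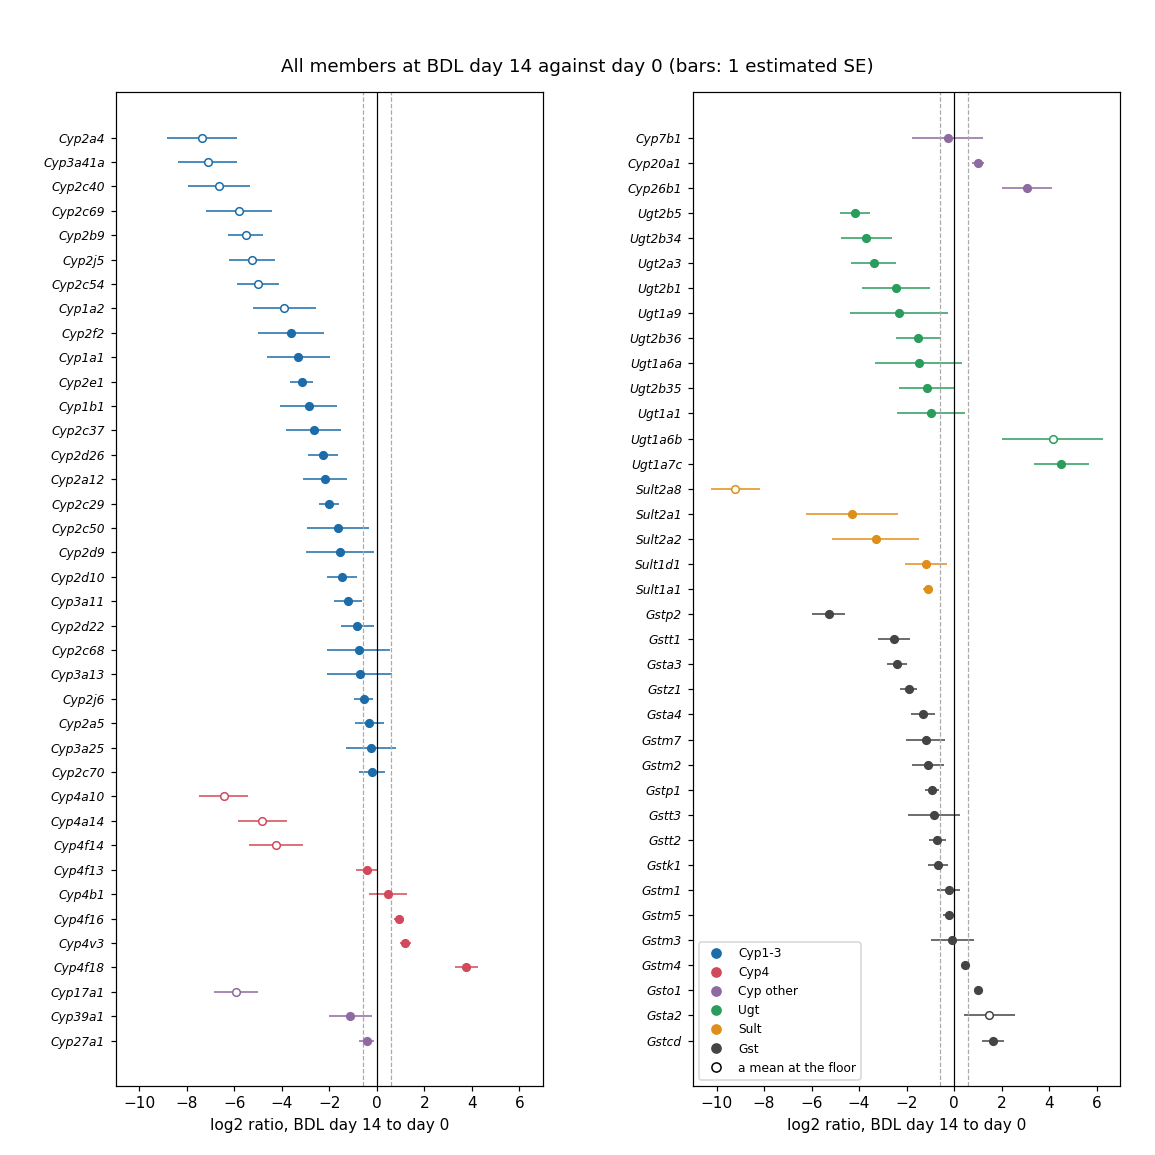
Log2 ratio of the BDL day 14 mean to the day 0 mean (horizontal axis) for all 75 members, ordered within each family; bars are 1 estimated SE, open circles mark ratios in which a mean lay at the floor, and dashed lines stand at 1.5-fold either way. *Sult2a8* lay farthest to the left (-9.21) and *Ugt1a7c* farthest to the right (4.51), and no gene of *Cyp* families 1 to 3 lay to the right of 0.

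*Cyp4* genes differed in course. The 3 that were lower at BDL day 14 had passed the filter through day 0 alone, so that direction follows from the way they were chosen. *Cyp4f18* (chr8:71988482-72009627, minus strand), which oxidises leukotriene B4 in mouse leukocytes, had means of 12.4, 29.5 and 169. Its log2 ratio was 1.25 ± 0.52 and then 3.77 ± 0.49, or 13.6-fold higher at BDL day 14, and its highest library, of BDL day 14, held 34.5% of the signal of that group, where 4 equal libraries would hold less. *Cyp4v3*, a fatty acid hydroxylase found in many tissues, had 36.6, 67 and 83.6 (log2 ratio 1.19 ± 0.23 at BDL day 14). *Cyp4f16* was close to its day 0 level at BDL day 3 and above it at BDL day 14, with 18.3, 20.2 and 34.9. The hepatocyte fatty acid hydroxylase genes *Cyp4a10* (5.33, 0.9 and 0.061), *Cyp4a14* (3.47, 0.791 and 0.123) and *Cyp4f14* (4.54, 0.726 and 0.237) were at the floor at BDL day 14. *Cyp4f13* was within 1.5-fold at both times with 17.3, 20.8 and 13. *Cyp4b1* had another course, low at BDL day 3 alone, with 44.4, 10.4 and 61.8, which is 4.27-fold lower at BDL day 3 and 5.94-fold higher at BDL day 14 than at BDL day 3.

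Macrophage and endothelial markers had courses of their own beside these. The 6 macrophage markers summed to 5198, 9286 and 13966 over the 3 groups, of which *Lyz2* gave 2280, 4560 and 11200, while the 4 Kupffer cell markers *Clec4f*, *Vsig4*, *Timd4* and *Cd5l* summed to 8518, 16949 and 1095. *Cyp4b1* shared its BDL day 3 low with all 5 sinusoidal endothelial markers (summed means 683, 258 and 726). The 7 cholangiocyte markers that passed the filter were all lower at BDL day 3 as well. Their summed means were 522, 202 and 828, of which *Spp1* gave 459, 175 and 792. How far the cells sorted account for *Cyp4f18*, *Cyp4v3* or *Cyp4b1* was not tested.

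The 6 other *Cyp* genes have separate roles. *Cyp26b1*, which breaks down retinoic acid, had means of 2.25, 4.63 and 18.9, a log2 ratio of 3.07 ± 1.06 at BDL day 14, with 47.6% of that group's signal in 1 library. *Cyp20a1*, an orphan P450, had 13, 22 and 25.9 (log2 ratio 0.76 ± 0.27 and 0.99 ± 0.25), and its estimated SD was among the small ones at 0.33. *Cyp27a1*, the mitochondrial sterol 27-hydroxylase that macrophages and hepatocytes use, stayed within 1.5-fold with 38.3, 30.1 and 28.6. Of the rest, the steroid 17-hydroxylase gene *Cyp17a1* had 3.72, 0.64 and 0.061, the oxysterol enzymes *Cyp39a1* 2.56, 0.604 and 1.19 and *Cyp7b1* 1.6, 0.795 and 1.33, where the BDL day 3 difference of *Cyp7b1* turned sign under quantile normalisation (log2 ratio 0.31). In *Cyp39a1* 1 library held 63.8% of the day 0 signal, and without it BDL day 14 was no longer past the fold (log2 ratio -0.22). Both *Cyp17a1* and *Cyp39a1* had passed the filter through day 0 alone.

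*Ugt* genes were mixed in the *Ugt1a* locus and lower in the *Ugt2* cluster. The *Ugt1a* locus on chromosome 1 (chr1:88070800-88220003, plus strand) makes its transcripts by joining different first exons to shared later exons. Among its 5 members, *Ugt1a7c* had means of 3.29, 14.3 and 74.8, a log2 ratio of 2.12 ± 1.23 and then 4.51 ± 1.15, or 22.7-fold higher at BDL day 14. *Ugt1a1*, the bilirubin glucuronosyltransferase, had 16.4, 3.51 and 8.31, with log2 ratios of -2.22 ± 1.52 and -0.98 ± 1.42 that lay within 2 SE of 0. *Ugt1a9* had 3.54, 4.55 and 0.704. For *Ugt1a6a* (4.28, 0.623 and 1.52) 96.6% of the day 0 signal came from 1 library, without which both its differences turned sign (log2 ratios 1.5 and 2.79), and for *Ugt1a6b* (0.208, 0.801 and 3.69) 95.5% of the BDL day 14 signal did, without which the mean there was 0.22. The filter was also passed by *Ugt1a6b* through the BDL libraries alone. Between 52.1% and 79.8% of the 50-base stretches in the transcripts of each of these 5 genes also occur in another of them, so how counting divided reads over the shared exons bears on every one of these values.

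The *Ugt2* members were low at BDL day 14. The 6 *Ugt2* genes on chromosome 5 and their neighbour *Sult1d1* (chr5:86889767-87569028) were all over 1.5-fold lower then, with log2 ratios between -4.17 and -1.14, although *Ugt2b35* turned sign under quantile normalisation (0.05). *Ugt2b5* had 8.81, 3.69 and 0.491 (17.9-fold lower at BDL day 14), *Ugt2a3* 8.33, 2.2 and 0.794 and *Ugt2b34* 6.26, 1.21 and 0.485. *Ugt2b1* and *Ugt2b36* followed with 3.94, 0.995 and 0.726 (the day 0 mean was 2.54 without 1 library with 57.0% of the signal) and with 3.87, 2.71 and 1.37. Of these genes, *Ugt2b34* and *Ugt2b1* had passed the filter through day 0 alone, which fixes their direction. *Ugt2b35* was the exception at BDL day 3, with 1.19, 2.12 and 0.541, where 1 library held 60.2% of the BDL day 3 signal and left a mean of 1.27 when taken out.

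**Figure D4:**
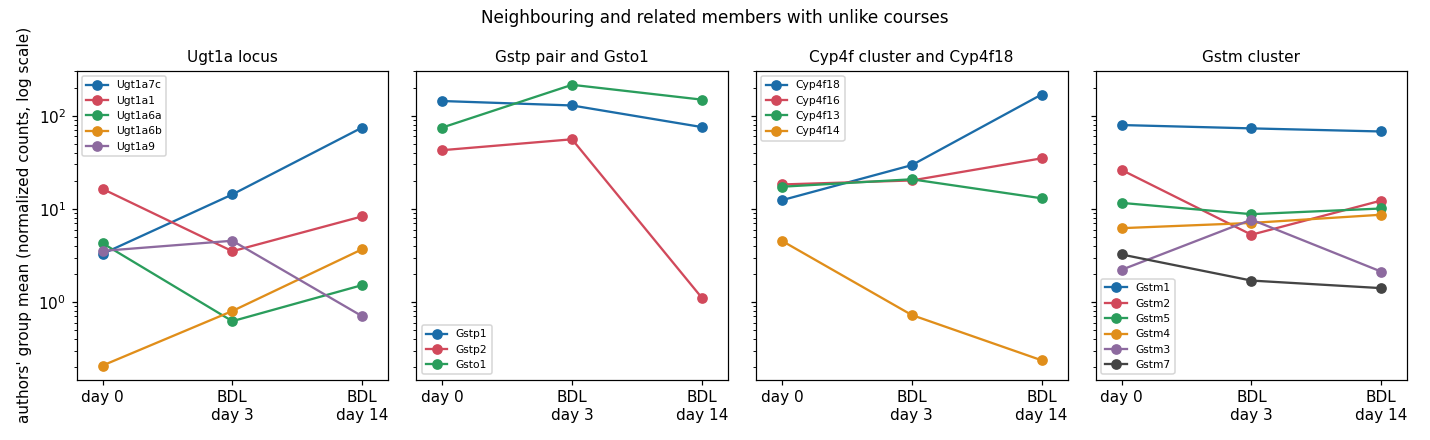
Authors' group means (normalized counts, log scale) at day 0, BDL day 3 and BDL day 14 for 4 sets of related members, one line per gene; no error bars are drawn because the table has no value per library. *Ugt1a7c* and *Cyp4f18* stand highest at BDL day 14 (74.8 and 169), *Gstp2* parts from *Gstp1* after BDL day 3, and *Gstm1* is nearly level while *Gstm2* is lowest at BDL day 3 (5.28).

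All 5 sulfotransferase genes were lower at BDL day 14 and 3 of them, the *Sult2a* genes, at BDL day 3, beside 28.8% and 29.2% of all genes. Those 3 had passed the filter through day 0 alone, so their lower direction follows from the way they were chosen. *Sult2a8* (chr7:14410686-14446770, minus strand), a bile acid sulfotransferase of mouse liver, had means of 36.2, 1.32 and 0.061. At BDL day 3 its log2 ratio stood at -4.78 ± 1.09, or 27.4-fold lower, and BDL day 14 was at least 148-fold lower than day 0. Its neighbours *Sult2a1* and *Sult2a2*, which sulfate steroids and bile acids, had 17.1, 0.947 and 0.876 and 11.7, 0.611 and 1.19, but 1 library gave 73.1% and 69.5% of their day 0 signal, with means of 6.90 and 5.35 without it, and they share sequence with each other (41.3% of the 50-base stretches of *Sult2a2*). *Sult1a1*, the phenol sulfotransferase found in many cell types, had 127, 133 and 59, a log2 ratio of 0.07 ± 0.21 and then -1.11 ± 0.20. *Sult1d1* had 3.21, 2.3 and 1.41, and its BDL day 14 call was lost under quantile normalisation.

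Glutathione S-transferases were mixed. Of 18, 8 were lower and 4 higher at BDL day 3. At BDL day 14, 11 were lower and 3 higher. The median log2 ratios were -0.37 and -0.77. Higher genes made up 22.2% and then 16.7% of the family, near the 19.2% and 21.2% among all genes. Lower genes made up 44.4% and then 61.1%, above the 29.2% and 28.8% among all genes. *Gsto1* (chr19:47854970-47864791, plus strand), the omega class enzyme that reduces dehydroascorbate and is abundant in macrophages, had 74.7, 215 and 149. It was 2.88-fold higher at BDL day 3 (log2 ratio 1.53 ± 0.14) and 1.99-fold higher at BDL day 14, and its spread was at the smallest SD that the 3 digits of the table can resolve, 0.17. *Gstcd* (1.24, 3.37 and 3.9) and *Gsta2*, an alpha class enzyme of peroxide detoxification (0.36, 2.2 and 1.01), were also higher, the latter at least 4.30-fold at BDL day 3 and at least 1.97-fold at BDL day 14. However, *Gsta2* had reached a mean of 1 through the BDL libraries alone, so its direction follows from the way it was chosen. Its BDL day 14 call was lost with a pseudocount of 1. *Gstm3* was higher at BDL day 3 alone, with 2.22, 7.67 and 2.12.

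Among the lower genes, *Gsta3*, of the alpha class, with 56.4, 24.6 and 10.6, reached a log2 ratio of -2.41 ± 0.42 at BDL day 14. *Gstz1*, an enzyme of tyrosine breakdown, had 49.9, 19.2 and 13.3, and *Gstt1* had 35.5, 5.03 and 6.13, with its low already at BDL day 3 (-2.82 ± 0.74). In the mu class on chromosome 3, *Gstm1* stayed level with 79.5, 73.2 and 67.8 (log2 ratio -0.23 ± 0.48 at BDL day 14), as did *Gstm5* with 11.6, 8.78 and 10.1, while *Gstm2* had 26.2, 5.28 and 12.3 and *Gstm7* 3.24, 1.7 and 1.41, whose BDL day 3 ratio turned sign under quantile normalisation (0.02). *Gsta4*, which removes lipid aldehydes, had 7.15, 5.68 and 2.9. The theta genes *Gstt2* (13.3, 7.43 and 8.21) and *Gstt3* (6.59, 3.11 and 3.68) and the mitochondrial *Gstk1* (14.4, 6.52 and 8.94) were lower at both times, although quantile normalisation ended the BDL day 14 call of all 3 and the BDL day 3 call of *Gstt3*, and *Gstm4* was within 1.5-fold with 6.21, 7.07 and 8.66.

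*Gstp1* and *Gstp2* are pi class neighbours on chromosome 19 that parted late. *Gstp1* had 144, 129 and 75.6, a log2 ratio of -0.93 ± 0.30 at BDL day 14. *Gstp2* had 42.7, 55.9 and 1.11, so its BDL day 14 mean was 38.5-fold lower than at day 0 (-5.27 ± 0.69) and 50.4-fold lower than at BDL day 3 (-5.65 ± 0.69). The pair shares 49.1% of the 50-base stretches of *Gstp2*, and the 300-base promoters around the starts were 77.3% identical, the TGACTCA pattern included. The Kupffer cell markers had the same order of groups as *Gstp2*, highest at BDL day 3 and lowest at BDL day 14 (*Clec4f* 4610, 6890 and 185), and their part in the *Gstp2* values was not tested. The RefSeq start of *Gstp2* lies 3803 bases inside the gene as the table places it.

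Between BDL day 3 and BDL day 14, 37 members were over 1.5-fold lower and 16 higher, with a median log2 ratio of -0.58. Over all genes 19.7% were lower and 21.2% higher. With the limit of 2 SE the members' counts were 18 and 6, beside 10.6% and 11.3%. The lower genes included 17 of 27 in *Cyp* families 1 to 3, and the higher ones 4 of 11 *Ugt* genes and 3 of 8 *Cyp4* genes. At BDL day 14, 13 members stood at the floor, against 2 at BDL day 3.

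Hepatocyte markers, a list of genes that are no members, were lower as most members were. Of 16, 14 and then 15 were lower, with median log2 ratios of -1.80 and -2.93 and summed means of 4789, 1347 and 677. *Alb*, the albumin gene, had 2440, 642 and 271, and *Fabp1* had 188, 6 and 0.138, the last at the floor, while *Arg1*, which macrophages also express, had 116, 69.8 and 157. In bulk libraries such as these, fewer cells of a type and less RNA of a gene per cell cannot be told apart. All 7 cholangiocyte markers that passed the filter were lower at BDL day 3, and 5 of them were lower and 1 higher at BDL day 14. Among them, *Prom1* had 6.66, 0.956 and 1.76, and the keratin gene *Krt19* 21.5, 12.7 and 14.3 (log2 ratio -0.59 ± 0.50 at BDL day 14). The keratin gene *Krt7* had 10.9, 5.61 and 10.7, and *Spp1* had 459, 175 and 792. Neutrophil, T and NK cell and B cell markers that passed the filter were lower at both BDL times.

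Lobular position did not divide the members cleanly. Of 11 members known from the central part of the lobule, 7 and then 8 were lower at the 2 times, beside 29.2% and 28.8% of all genes. Their median log2 ratios were -0.88 and -1.21. Among them, *Cyp1a2* and *Cyp2c37* had passed the filter through day 0 alone, which fixes their direction. All 3 members known from the portal part (*Cyp2f2*, *Cyp17a1* and *Gstp1*) were lower at BDL day 14, and the first 2 of them already at BDL day 3. *Cyp17a1* had also passed the filter through day 0 alone, and *Cyp2f2* had means of 4.65, 2.27 and 0.381. The *Cyp2f2* call at BDL day 3 (log2 ratio -1.03 ± 1.47) was lost without the library that held 56.4% of its day 0 signal (-0.42) and under quantile normalisation (-0.26). Central genes outside the families were split, as *Glul* had 385, 565 and 388, whereas *Rgn* had 28.9, 3.78 and 1.66. Of these 5 central genes, 2 and then 3 were lower at the 2 times, and of 9 portal genes outside the families, 6 and then 5.

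Members with a known excess in female mouse liver were chosen in a way that fixes their direction: all 9 had a mean under 1 over the BDL libraries and passed the filter through day 0 alone. As a description, the 9 (*Cyp2a4*, *Cyp2b9*, *Cyp2c40*, *Cyp2c69*, *Cyp3a41a*, *Cyp4a14*, *Cyp17a1*, *Sult2a1* and *Sult2a2*) had summed means of 67, 4.83 and 2.56. At BDL day 14, 7 of them stood at the floor, and with genes at the floor set to their bound the 2 median log2 ratios were -3.71 and -3.93. Of 5 genes with a male excess, 1 was lower and 1 higher at BDL day 3 and 4 were lower at BDL day 14. *Xist*, expressed from the inactive X of females, had group means of 143, 40.2 and 28.3, and the Y-linked *Ddx3y* had 7.73, 17.1 and 19.1. Sex therefore moved with the groups beside these 9 genes, and its part in their values cannot be told apart from that of BDL.

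Members known from cells other than hepatocytes fell on both sides. Of 14 such genes that passed the filter, 5 were higher and 3 lower at BDL day 3, beside 19.2% and 29.2% of all genes. At BDL day 14, 6 were higher and 5 lower, beside 21.2% and 28.8%. Their summed means were 574, 738 and 726. The list also holds *Gstp1* and *Gstm1*, which were counted above by lobular position.

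Genes that serve the enzymes were mostly not lower at BDL day 3. *Por*, the reductase that feeds electrons to microsomal P450s, had 35, 93.2 and 76.3 (log2 ratio 1.41 ± 0.23 at BDL day 3). Of the 5 electron donors, 1 was higher and 0 lower at BDL day 3, and 1 was higher and 2 lower at BDL day 14. Of 8 genes that make the cosubstrates, 3 were higher and 1 lower at BDL day 3, and 2 were higher and 1 lower at BDL day 14. *Gsr*, which regenerates glutathione, had 64.5, 228 and 141 (1.82 ± 0.16), *Gclm*, a subunit of the enzyme that limits glutathione synthesis, had 33.9, 67.7 and 38.4, and *Papss2*, which makes the sulfate donor, had 17.2, 4.67 and 6.54. Of 15 other drug enzymes outside the families, 8 were lower and 3 higher at BDL day 3, and 9 were lower and 3 higher at BDL day 14. Their higher counts were thus near the shares of all genes, 19.2% and 21.2%. Among them, *Adh1* had 103, 20.1 and 8.2, *Aldh1a1* 74.7, 14.4 and 7.33, and *Ephx1*, the microsomal epoxide hydrolase, 101, 347 and 32, high at BDL day 3 and low at BDL day 14.

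Transporters and receptors divided by gene. The efflux pump *Abcc3*, which cells use to pass bile acid and drug conjugates to the blood, had 125, 375 and 153 (1.58 ± 0.31 at BDL day 3). Of 6 efflux genes, 2 were higher and 1 lower at BDL day 3, beside 19.2% and 29.2% of all genes. The xenobiotic receptors *Nr1i2* (PXR) and *Nr1i3* (CAR) had 6.99, 1.58 and 0.387 and 4.01, 1.07 and 0.467, and *Hnf4a*, a hepatocyte factor that the hepatocyte list also holds, had 27.8, 6.47 and 3.74. *Nfe2l2*, which drives *Gst* genes under oxidative stress, stayed at 104, 106 and 94.9. The aryl hydrocarbon receptor gene *Ahr* had 4.75, 4.8 and 8.53.

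Promoters were found in RefSeq for 63 of the 75 members, and 6 letter patterns were searched on both strands over 300 bases, 250 before the start and 50 after it. CAAAGTCCA occurred in 6 of the 63 members (9.52%) and in 0.475% of 32851 promoters. The 6 were *Cyp2c40*, *Cyp2c68*, *Cyp2c69*, *Cyp2c70*, *Cyp3a11* and *Cyp3a41a*, from 2 gene clusters whose members resemble each other (*Cyp2c40* and *Cyp2c69* promoters were 80.9% identical), so they are not separate instances. Their BDL day 14 log2 ratios ran from -0.20 for *Cyp2c70* to -7.11 as listed for *Cyp3a41a*, which was at the floor there and at least 34.5-fold lower. Of the 6, *Cyp2c40*, *Cyp2c69* and *Cyp3a41a* had passed the filter through day 0 alone, which fixes their direction. *Cyp3a11* and *Cyp3a41a*, printed above, hold the same 9 letters and were 71.9% identical, with BDL day 14 means of 12.2 and 0.061.

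Other patterns were at or below their share of all promoters in most cases. TGACNNNGC occurred in 4 members (6.35%, *Cyp2j6*, *Cyp4f18*, *Gsta3* and *Gstm5*) beside 12.4% of all promoters, GCGTG, the core of the xenobiotic response element, in 12 (19.0%) beside 32.4%, and GGAAGT, of the ETS type, in 14 (22.2%) beside 23.8%. TGACTCA occurred in 6 members (9.52%) beside 5.2%, and a palindrome of the HNF1 type in 0 members beside 0.00913%. TGACTCA in *Gstp1* and *Gstp2* stands in a stretch that the pair shares. A match describes letters and says nothing of binding in these cells.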

How the data were processed

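mRNA of sorted GFP(+) cells was sequenced. Per the labels and the study's methods, the authors trimmed reads (minimum quality 20, length 25), aligned them to mm10 with STAR (2.6.1d in the labels' processing notes), quantified GENCODE M18 genes and normalized by the upper quartile in Partek Flow. The values in the deposited table are signal values: for each group a least squares mean of normalized counts, the mean and geometric mean over 10 libraries, and the highest library's value. Its 21 columns of the authors' own comparisons (p-values, FDR, ratios, fold changes and limits) were not used, and it has 0 columns of values per library.

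Ratios of group means were computed (Python 3.11.15, pandas 2.3.3, numpy 2.4.6). Weighted by 3, 3 and 4 libraries, the group means gave back the mean over all libraries within 0.678%. The SD was estimated from the gap between the weighted mean of the logs of the group means and the log of the geometric mean, assuming equal spread in the groups, with a smallest SD of 0.17, and was tested on simulated data. Positions are GRCm38, and all 75 members have the same coordinates in the annotation used for exon lengths. The 50-base stretches come from annotated transcripts, and promoters from RefSeq (GRCm38.p6).

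Genes named were, in each of 6 family groups, the 4 highest members, the 3 largest and 3 smallest BDL day 14 ratios, every member over 1.5-fold higher, the members at the threshold, and members of fixed lists. The members and lists were chosen with earlier results of these data known. Alternatives were a mean of at least 10, all genes of the names, a pseudocount of 1, median ratio scaling, quantile normalisation, a 2-fold threshold, day 0 without its highest library and, added after seeing the data, the limit of 2 SE and the single members without the highest day 0 library.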

Additional observations from a re-analysis of the deposited data

How the results depend on the processing

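The table has no values per library, so leaving out each replicate was not possible, and depth could not be weighed. No paired analysis was possible because the table holds group means only. Pseudocount, median ratio scaling (which shifts log2 ratios to day 0 by -0.17 at BDL day 3 and -0.13 at BDL day 14), a 2-fold threshold and day 0 without its highest library kept each count within 1.5 times.

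With no filter (106 genes), 18 were higher at BDL day 14 than at day 0 and 26 than at BDL day 3. With a mean of at least 10 (21 members), 12 passed the fold at BDL day 3 (7 lower, 5 higher; median log2 ratio -0.12), 16 at BDL day 14 (10 lower, 6 higher; median -0.42) and 13 between the BDL times (8 lower, 5 higher). Quantile normalisation gave a BDL day 3 median of -0.53. The limit of 2 SE gave 35 at BDL day 3 (29 lower, 6 higher), 34 lower at BDL day 14, and 24 between the BDL times (18 lower, 6 higher).

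Under quantile normalisation the sign turned in 10 members (BDL day 3) and 8 (BDL day 14), 9 and 10 lower calls were lost, and 5 members each time passed 1.5-fold higher that had been within it. Among members past the fold, the sign turned at BDL day 3 for *Cyp2c50* (0.15), *Cyp7b1* (0.31) and *Gstm7* (0.02), and at BDL day 14 for *Cyp2c68* (0.03), *Cyp3a13* (0.11) and *Ugt2b35* (0.05); the cause was not tested. Without its highest day 0 library, *Ugt1a6a* stood at 1.5 at BDL day 3 and 2.79 at BDL day 14, since that library held 96.6% of the day 0 signal. That setting also ended the lower call of *Cyp2f2* at BDL day 3 (-0.42) and of *Cyp39a1* at BDL day 14 (-0.22). Median ratio scaling turned *Cyp4f16* and *Sult1a1*, both near 0 at BDL day 3, and lost no call.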

Other observations

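Of the 31 genes with family names that stayed below a mean of 1, *Cyp3a41b*, *Cyp3a44* and *Sult3a1*, which are known for a female excess, had group means of 2.87, 2.02 and 1.94 at day 0, and each was at 0.0729 at BDL day 3 and 0.061 at BDL day 14, the lowest values of those columns. *Sult1e1*, the estrogen sulfotransferase, went the other way, with 0.128, 0.401 and 1.19, and so did *Gsto2* with 0.128, 0.645 and 0.95. *Gsta1* peaked at BDL day 3 with 0.128, 2 and 0.395. *Cyp7a1*, the first enzyme of the classic bile acid pathway and left out by name, had 0.823, 0.452 and 0.0843, *Cyp8b1* had 2.2, 1.4 and 0.178, and *Cyp51* of sterol synthesis had 16.5, 11.4 and 17.1. These genes were picked after their values were seen.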
